A study of Mus musculus with 6 samples.

Results

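The interferon gamma inducible GTPases were followed through 9 genes: Tgtp1, Tgtp2, Irgm1, Irgm2, Igtp and Iigp1 of the immunity-related GTPases (IRGs), and Gbp2, Gbp3 and Gbp6 of the guanylate-binding proteins (GBPs). They were taken by gene name from the 36163 names on the array, with every probe of each name read, which gave 13 probes. The 9 genes were chosen by their measured values in the knockout against control comparison of these same arrays, so their values in that comparison are described here and not tested.

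Peritoneal cavity (PC) B1a cells were sorted by flow cytometry, and gene expression in them was measured on Agilent mouse arrays of 1 colour. The case mice were p40-/-IL-2Rα-/- (p40-/-CD25-/- in the labels, knockout below), a model of autoimmune cholangitis, and the control mice were p40-/-IL-2Rα+/- (p40-/-CD25+/- in the labels). All were 7-week-old females on a C57Bl/6 background, with 3 arrays per genotype and at least 3 mice in each sample. All mice of both genotypes lacked p40, the subunit that IL-12 and IL-23 share, so no group had intact IL-12, itself an inducer of interferon gamma. IL-2Rα (CD25) was missing from every cell of the knockout mice and not from B cells alone, and the controls carried 1 copy, so no wild-type mouse was compared.

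IRGs and GBPs are GTPases whose genes are switched on mainly by interferon gamma, through the kinases JAK1 and JAK2 and, further down, IRF1, and in part by type I interferons. In mouse cells they coat the vacuoles that hold intracellular parasites and bacteria, and they help to break them open. The effector IRGs (Tgtp1 and Tgtp2, also called Irgb6, and Iigp1, also called Irga6) load onto the vacuole, whereas the regulatory IRGs (Irgm1, Irgm2 and Igtp, also called Irgm3) sit on the membranes of the cell itself and hold the effectors inactive there. GBPs of the Gbp2 type act beside the IRGs at the vacuole.

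The stretches of promoter below are shown because interferon motifs are carried by Tgtp2, the tested member with the largest difference, and also by members that differed little. The sequences are from RefSeq (GRCm38.p6), 60 bases each, written on the strand of the gene, and in every line the end of the stretch lies upstream of the annotated start. Capitals mark TTCNNNGAA, the letters of a gamma activated sequence (GAS), and GAAANNGAA or, on the other strand, TTCNNTTTC, the core of an interferon stimulated response element (ISRE). The first 4 lines hold 1 of each, and the Gbp2 line holds the ISRE letters.
Tgtp2: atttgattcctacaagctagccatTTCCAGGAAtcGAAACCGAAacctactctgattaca
Tgtp1: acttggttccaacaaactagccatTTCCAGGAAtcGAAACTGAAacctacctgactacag
Igtp: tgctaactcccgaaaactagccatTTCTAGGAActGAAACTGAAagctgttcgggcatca
Irgm2: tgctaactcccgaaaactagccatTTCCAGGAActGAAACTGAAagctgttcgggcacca
Gbp2: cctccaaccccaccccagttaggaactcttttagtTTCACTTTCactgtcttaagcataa
The stretches lie at chr11:49064258-49064317 (minus strand) for Tgtp2, chr11:48992299-48992358 (minus strand) for Tgtp1, chr11:58199487-58199546 (plus strand) for Igtp, chr11:58214878-58214937 (plus strand) for Irgm2 and chr3:142620570-142620629 (plus strand) for Gbp2.

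In the Tgtp2 stretch the GAS letters began 81 bases and the ISRE letters 70 bases before the annotated start. In Tgtp1 they began 88 and 77 bases before it, in Irgm2 75 and 64 bases, and in Igtp 45 and 34 bases. Over the whole window of 300 bases, from 250 before to 50 after the start, the ISRE letters were found in 8 of the 8 members searched and the GAS letters in 5, namely Tgtp1, Tgtp2, Irgm2, Igtp and Gbp6. The Iigp1 window was not used. Of all 32851 promoter windows, 8.56% held the ISRE letters, 8.3% the GAS letters and 1.07% both. A match of letters is a description of the window and does not show that a factor binds there.

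All levels below are the log2 of the processed signal of a probe minus the 75th percentile of its array, and a difference is the knockout mean minus the control mean on that scale. Tests were run on probes whose signal stood well above background throughout the 3 arrays of one genotype or of both, in all 24753 probes of 18254 genes. Knockout arrays were less bright, their 75th percentiles running from 66.5 to 162 and those of the control arrays from 252 to 272, and knockout 2 was the dimmest. The 6 arrays shared 1 slide and 1 scan. The median difference of all tested genes was -0.12, and some differences are also given relative to it. Il2ra, the gene missing from the knockout mice, gave 1.62, 1.13 and 1.35 in controls 1, 2 and 3. It gave -0.31, -0.59 and 0.86 in knockouts 1, 2 and 3, so that knockout 3 stood closest to the controls. Il12b, the p40 gene that all mice lacked, was nevertheless well above background on all 6 arrays. It read -1.916, -2.006 and -2.245 in the controls and -2.522, -1.912 and -1.798 in the knockouts. Whether either probe lies in the deleted part of its gene was not determined. All 5 B1a markers read were well above background on every array. In sorted cells read in bulk, fewer cells of a type and less RNA per cell cannot be told apart, and p-values measure only the spread between these samples.

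Of the 9 members, 8 had a tested probe, and all 8 were well above background on all 6 arrays. Tgtp2 was 5.31-fold higher in knockout B1a cells and Iigp1 1.91-fold higher, each with all 3 knockout values above all 3 control values. The other 6 overlapped between the genotypes, and 5 of the 8 differed by 1.25-fold or less in either direction. No member had all knockout values below all control values. Beside all genes tested, 1 of 8 members was higher by 1 log2 unit or more, against 2.43% of all genes, and 2 of 8 had separated groups with the knockout above, against 14.7%. Since this contrast chose the members, nothing is read from either count. The median difference of the 8 members was 0.16, against -0.12 over all genes.

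Among the effector IRGs, Tgtp2 read 1.92, 1.59 and 1.43 in the control samples and 4.46, 3.97 and 3.73 in the knockout samples. The means were 1.65 ± 0.245 and 4.06 ± 0.372 (SD, n = 3 each), a difference of 2.41, or 2.52 relative to the median of all genes. Its lowest knockout value lay 1.82 above its highest control value. The difference ranged from 2.01 to 2.57 over the other ways of processing and from 2.20 to 2.57 with any 1 array left out, so it was more than 4-fold in all of them. It was 2.45 without knockout 2 and 2.57 without knockout 3. In the table of log2 values that the authors deposited it was 2.55. This probe lies at chr11:48871837-48871896 on the minus strand (mm9, as the array files give it).

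A second Tgtp2 probe, at chr11:48871605-48871664, was well above background on no array, so its values give no fold. The Tgtp1 probe, at chr11:48799587-48799646 on the minus strand, read -5.18, -4.85 and -5.49 on the control arrays, none of them well above background. On the knockout arrays it read -2.26, -3.51 and -3.23, and knockout 1 and knockout 3 were well above background. No fold is given for Tgtp1, since only 2 of the 6 arrays measured it. All 3 Tgtp probes list transcripts of both Tgtp1 and Tgtp2, so the near-identical genes cannot be told apart here.

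Iigp1, an effector that assembles on parasite vacuoles, read -2.72, -2.53 and -2.78 in the control samples and -2.22, -1.23 and -1.78 in the knockout samples. The means were -2.67 ± 0.132 and -1.74 ± 0.494 (SD, n = 3 each), a difference of 0.93. The groups did not overlap, but the lowest knockout value was only 0.31 above the highest control value. The highest value came from knockout 2, the dimmest array, on which no probe below -2.40 was well above background, a limit above all 3 control values of Iigp1. Without knockout 2 the difference was 0.68, without knockout 3 it was 0.95, and it was 0.22 with normexp background correction and quantile normalization. A second Iigp1 probe was well above background on no array.

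The regulatory IRGs differed little. Irgm1 read 2.26, 2.17 and 2.40 in the control samples and 2.72, 2.31 and 2.45 in the knockout samples, with overlap and a difference of 0.22. Its second probe read 0.24, 0.50 and 0.41 against 1.00, 0.65 and 0.60, without overlap and with a difference of 0.37. The probes of Irgm1 therefore pointed the same way, by 1.16-fold and 1.29-fold, and parted only on whether the groups touched.

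Irgm2 read 2.73, 2.77 and 2.35 in the control samples and 2.93, 2.41 and 2.64 in the knockout samples, a difference of 0.05. Igtp, for which the array carries 10 spots, read 3.75, 3.99 and 3.64 against 4.13, 3.61 and 3.95, a difference of 0.11. The SD between the 10 Igtp spots of an array was 0.026 to 0.063, and the SD between samples was 0.176 for the controls and 0.263 for the knockouts. Spots of an array share their labelling and hybridization, so noise between arrays cannot be told apart from a difference between samples. With normexp correction and the 75th percentile the main Irgm1 probe, Irgm2 and Igtp all turned slightly negative, and no direction is read for them.

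Gbp2, a GBP with a lipid anchor, read 5.27, 5.21 and 5.48 in the control samples and 5.74, 5.35 and 5.80 in the knockout samples. Its difference of 0.31 (1.24-fold) came with overlapping groups and became -0.03 with normexp correction and the 75th percentile. Gbp3 read 5.18, 4.99 and 5.27 against 4.71, 4.45 and 5.22. It was the only member lower in the knockout under every setting tried, with a difference of -0.36, or -0.24 relative to the median of all genes, and its groups overlapped through knockout 3. The Gbp3 difference was -0.19 without knockout 2 and -0.57 without knockout 3, and it ran from -0.65 to -0.17 over the other ways of processing.

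The probe that the files name Gbp6 carries the accession of the gene that RefSeq calls Gbp7, at chr3:142209379-142209438 on the plus strand (mm9). It read 3.10, 3.18 and 3.42 in the control samples and 3.12, 2.80 and 3.39 in the knockout samples. Its difference of -0.13 was close to the median of all genes and turned positive under quantile normalization, with or without normexp, and in the deposited table. A second probe of that name was well above background on no array.

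**Figure D1:**
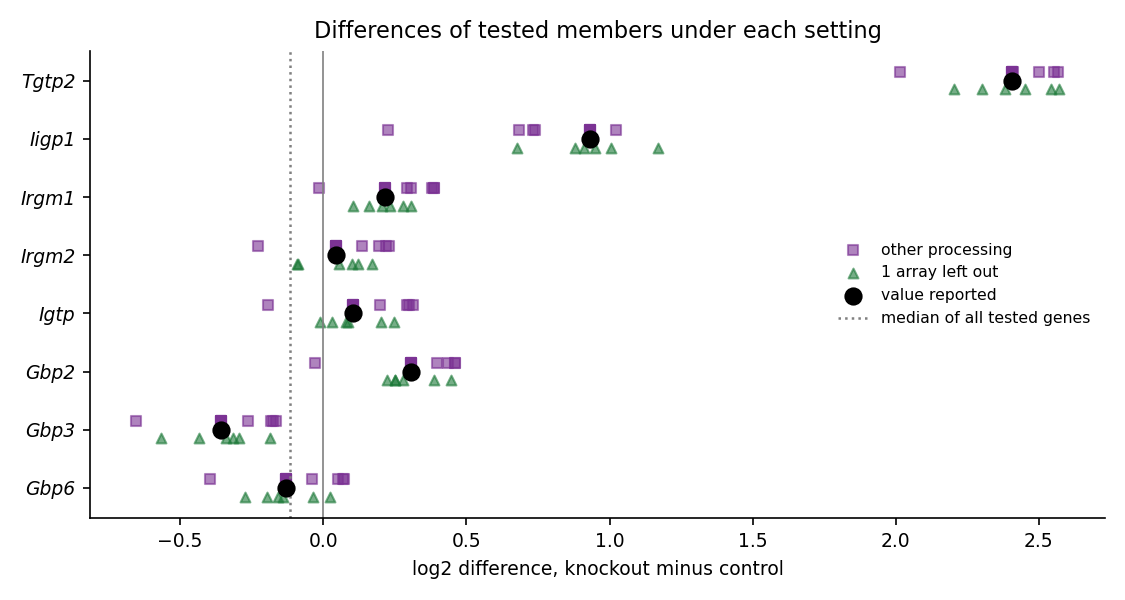
Log2 difference, knockout minus control (horizontal axis), of the 8 tested members as reported (black), under other processing (squares) and with 1 array left out (triangles). Tgtp2 stays between 2.01 and 2.57 and Iigp1 between 0.22 and 1.17, Gbp3 stays below 0, and the points of Irgm1, Irgm2, Igtp, Gbp2 and Gbp6 fall on both sides of 0.

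The members did not follow 1 pattern across the knockout samples. Knockout 2 gave the lowest knockout value of 6 of the 8 tested members, whereas Iigp1 was highest there. Knockout 1 gave the highest value of 4 members and knockout 3 of 3. The SD within a genotype ranged from 0.119 for Irgm1 in the controls to 0.494 for Iigp1 in the knockouts.

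The IRG probes of chromosome 11 lie in 2 clusters. In the first, near 48.7 to 48.9 Mb (mm9), the Tgtp2 probe stood 2.41 higher. It lists transcripts of both Tgtp1 and Tgtp2, so the difference cannot be placed at either gene. The nearest genes read were 9930111J21Rik2, which differed by -0.49 (0.30 with normexp correction and the 75th percentile), and Ifi47, an effector IRG also called Irgd, which differed by 0.06 (adjusted p = 0.82, limma). Beyond them lay the Tgtp1 probe, well above background on knockout 1 and knockout 3 alone, 9930111J21Rik1 (0.41) and Irgm1 (0.22). In the second cluster, near 58.0 Mb, Igtp and Irgm2 differed by 0.11 and 0.05, and their neighbour Gm12250, an effector IRG also called Irgb10, by 0.55 (adjusted p = 0.136). The Ifi47 value became -0.26 with normexp correction and the 75th percentile.

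The rest of both families was read from a list of 18 names. The files use 16 of them, of which 13 were tested. The other 2, Gbp2b and Gbp7, are the RefSeq names of the genes that the files call Gbp1 and Gbp6. In the limma fit none of the 13 was called at 2-fold with an unadjusted p of at most 0.05, against 2.26% of all genes called higher and 1.27% called lower. None passed an adjusted p of 0.05 either, as 7 of all 18254 genes did (0.0383%), and the smallest adjusted p was 0.104. At an unadjusted p of at most 0.05 alone, 5 were higher and 2 lower, where 11.6% of all genes were higher and 13.6% lower, and the methods' t-test called none. Single arrays decided some calls: without control 1 Gbp1 and Irgc1 were called lower, and without knockout 3 Gbp1 was. Past the adjusted p were 4 of the 13 with normexp correction and the 75th percentile, as were 35.3% of all genes, and 2 with trend and robust estimation, as were 4.13% of all genes. The median difference of the 13 was 0.41.

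Gvin1, a very large inducible GTPase, read 5.21, 5.13 and 5.07 in the control samples and 5.73, 5.93 and 5.69 in the knockout samples, a difference of 0.65 ± 0.139 (SE, adjusted p = 0.104, limma). Its 6 values separated by genotype. The same held at smaller size for Gm12250 (0.55), Gbp11 (0.51), Gbp9 (0.47), 9930111J21Rik1 (0.41) and Gbp8 (0.35), whose adjusted p-values lay between 0.128 and 0.20. In all, 6 of the 13 lay above the controls without overlap, as 14.7% of all genes did. The 9930111J21Rik1 difference was 0.07 with normexp correction and the 75th percentile. Gbp4 (0.57), Gbp10 (0.52) and Gbp5 (0.21) overlapped between the genotypes, Gbp10 was 0.18 without knockout 2, and Gbp5 turned to -0.08 with normexp correction and the 75th percentile.

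The gene that the files call Gbp1, which RefSeq names Gbp2b, went the other way. It read 1.87, 2.14 and 2.24 in the control samples and 0.71, 1.17 and 1.60 in the knockout samples, a difference of -0.92 ± 0.243 (SE, adjusted p = 0.12, limma), with no overlap. Gbp1 lies between Gbp3 and Gbp2 on chromosome 3, whose own differences were -0.36 and 0.31. Irgq, an IRG-like gene, also lay below the controls without overlap (-0.46, adjusted p = 0.197), and its difference was -0.28 without knockout 2. 9930111J21Rik2, whose sign turned as given above, had an adjusted p of 0.235. F830016B08Rik, Gm4951 and Irgc1 were not tested, being well above background on too few arrays.

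**Figure D2:**
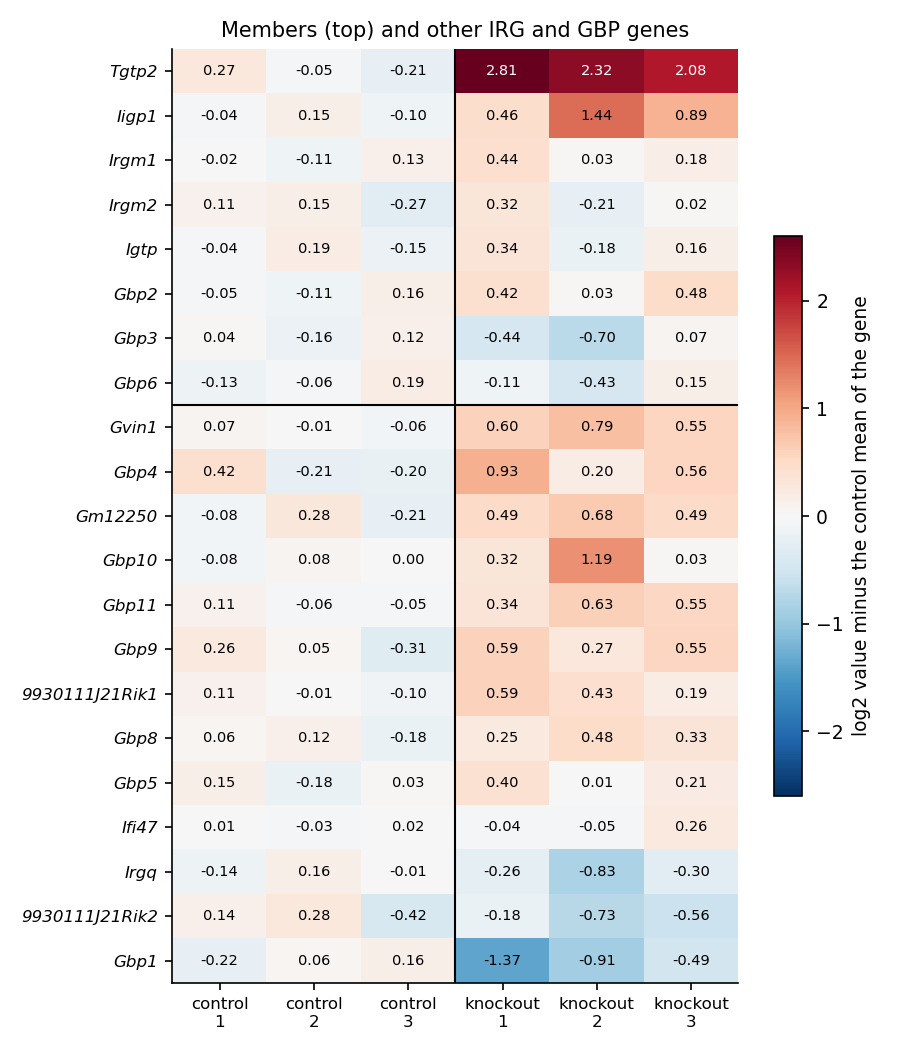
Log2 value of each gene minus its own control mean (colour and printed value) for the 8 tested members above the line and the 13 other tested IRG and GBP genes below it, with the 6 samples as columns. Tgtp2 stands 2.08 to 2.81 above its control mean on the knockout arrays, Gvin1 0.55 to 0.79 above, and Gbp1 0.49 to 1.37 below (values of -0.49 to -1.37).

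The pathway upstream of these GTPases was then read in the same fit. Ifng itself was not tested. It was well above background on knockout 3 only, where it read -1.53, and on no control array. The receptor genes Ifngr1 and Ifngr2 differed by -0.14 and -0.05 and the kinase genes Jak1 and Jak2 by -0.04 and -0.18, with adjusted p-values of 0.557 to 0.854 and with a sign that turned for each of them under quantile normalization.

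Irf8, an interferon regulatory factor active in B cells and myeloid cells, differed by 0.69 ± 0.141 (SE, adjusted p = 0.0969, limma), without overlap. Irf1, a regulatory factor that acts on the GTPase genes, differed by 0.06 (adjusted p = 0.851) and by -0.27 with normexp correction and the 75th percentile. Socs1, which restrains JAK signalling, differed by -0.21 (adjusted p = 0.408).

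Of 45 genes of interferon gamma signalling and its targets, 38 were tested. Only Nlrc5, the transactivator of MHC class I genes, was called higher at 2-fold with an unadjusted p of at most 0.05, which is 2.63% of the list against 2.26% of all genes, and none was called lower. The share is near that of all genes and is no result about the pathway. Nlrc5 read 3.11, 2.53 and 2.82 in the control samples and 4.08, 3.87 and 3.99 in the knockout samples, a difference of 1.16 ± 0.184 (SE, adjusted p = 0.0771, limma). With any 1 array left out the difference was 1.01 to 1.31. Nlrc5 was called under 18 of 19 settings, the reported one included, and missed the 2-fold limit with normexp correction and the 75th percentile. None of the 38 passed the adjusted p, and at an unadjusted p of at most 0.05 8 were higher and 1 lower, against 11.6% and 13.6% of all genes. The median difference was 0.02, and -0.26 with normexp correction and the 75th percentile. Taken with the other IRG and GBP genes, the number called higher was 1, and it was 4 without knockout 1 (Nlrc5, Cxcl11, Cxcl10 and Batf2).

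The type I interferon stimulated genes, many of which respond to both kinds of interferon, held more calls. Of 21 tested, 5 were called higher at 2-fold with an unadjusted p of at most 0.05 (23.8%) and none lower, while 2.26% of all genes were called higher. They were Rtp4 (1.50), Irf7 (1.32), Usp18 (1.30), Ifit3 (1.098) and Oas2 (1.04), each with separated groups. Irf7 read -3.22, -3.26 and -2.72 in the controls and Usp18 read -3.05 in control 2. These values lie below -2.40, the limit for a signal well above background on knockout 2. With normexp and quantile normalization the differences were 0.30 for Irf7 and 0.57 for Usp18. None passed the adjusted p, and the smallest was 0.0962 (limma). The number called was 3 with the methods' t-test, 2 without control 2, 2 with normexp and quantile normalization and 1 (Rtp4) with normexp and the 75th percentile. The median difference of the 21 was 0.45. This list was chosen with earlier results of these data known, so its share of calls is a description and not independent evidence.

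The genes of autophagy and ubiquitin conjugation that help to place IRGs and GBPs on membranes showed no call in either direction among 15 tested. At an unadjusted p of at most 0.05, 4 were lower and none higher, against 13.6% and 11.6% of all genes, the methods' t-test called none at 2-fold, and the smallest adjusted p was 0.105 (limma). The median difference was -0.26, against -0.12 over all genes. Atg3, the enzyme that attaches lipid to LC3 family proteins, gave -0.70, Gabarap, one of those proteins, gave -0.51 and Atg5, part of the complex that guides Atg3, gave -0.44, all with the knockout values below the control values. Atg12, the partner of Atg5 in that complex, gave -0.49 with overlap, and -0.22 with the mean of its probes. The Atg5 difference was -0.22 with normexp and quantile normalization.

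**Figure D3:**
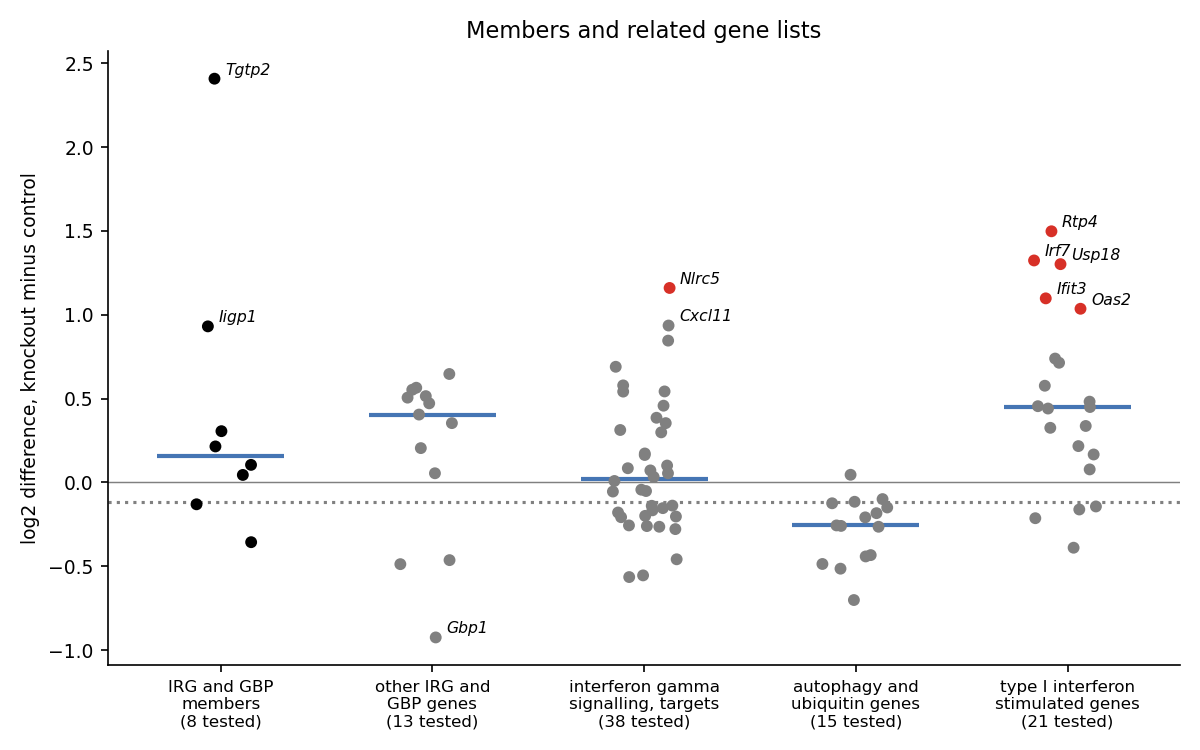
Log2 difference, knockout minus control (vertical axis), for each tested gene of the members and of 4 related lists. Blue bars are medians, the dotted line is the median of all tested genes, and red points are genes outside the members that passed 2-fold with an unadjusted p of at most 0.05. Tgtp2 at 2.41 lies above every other gene shown, and red points are Nlrc5 and 5 type I interferon stimulated genes.

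Genes outside the members were ranked by how closely their 6 values, centred on their own mean, followed the mean profile of the 8 tested members. The 5 closest lay within a root mean square distance of 0.058 log2 units over the 6 arrays. They were Il18bp (0.043), an inhibitor of interleukin 18, H2-K1 (0.045), an MHC class I heavy chain, Xaf1 (0.058), an interferon induced gene, and 2 transcripts that the files name only by identifier. The mean profile is carried mainly by Tgtp2, since the mean difference of the members was 0.44 with it and 0.16 over the other 7, and this contrast chose the members, so the ranking is a description only.

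Markers of other cell types were read beside these values. Of the 10 T cell markers, 7 were well above background on all control arrays and 7 on all knockout arrays, and their summed signal, in multiples of the 75th percentile, was 264 to 274 in the controls and 212 to 295 in the knockouts, most of it from Cd2. Without Cd2 the sum was 5.03 to 5.69 in the controls and 6.08 to 8.46 in the knockouts, with no overlap. Cd3e read 0.50, 0.26 and 0.51 against 0.75, 1.16 and 1.15, and Thy1 read -2.14, -3.29 and -3.75 against -1.57, -1.73 and 0.51. Of the 7 T cell markers above background on all 6 arrays, these 2 lay above the controls on every knockout array, as 14.7% of all genes did, and none lay below. Cd3g read 1.05, 0.75 and 0.61 against 0.78, 0.13 and 0.64. Cd8a and Cd8b1 were well above background on knockout 3 only, the same array as Ifng. Of the 6 NK cell markers, Klra8, Klrb1c and Ncr1 were well above background on no array, and the sum was 0.593 to 0.758 against 0.765 to 1.09.

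Macrophage markers summed to 16.3 to 32.6 on the control arrays and 15.1 to 42.9 on the knockout arrays, with 7 of 9 well above background on all arrays of each genotype. The sum of 42.9 was that of knockout 2, where Iigp1 and Gbp10 had their highest values. Marco read 2.48, 1.69 and 0.695 in the controls and 1.64, 4.31 and 1.68 in the knockouts. Marco, Emr1, Cd14 and Mertk were highest on knockout 2, whereas Csf1r, Lyz2, Timd4, Cd68 and Gata6 were highest on a control array. The 5 dendritic cell markers, nearly all of whose signal was Siglech, summed to 61.3 to 66.6 in the controls and to 72.1 to 127 in the knockouts. The part of these T cell, NK cell, macrophage and dendritic cell markers in the differences of Tgtp2, Iigp1, the other IRG and GBP genes and the type I interferon stimulated genes was not tested.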

How the data were processed

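Total RNA of sorted PC B1a cells was read on 6 one-colour arrays, 3 per genotype. The authors deposited the processed intensity of each spot from Agilent Feature Extraction 10.7.1.1 (local background removed, arrays left on their own scales). They also deposited a log2 table, used here as an alternative. From the intensity, log2 minus the 75th percentile of the array over non-control spots was computed, outlier spots were dropped, and replicate spots were averaged per probe. A probe was well above background on an array where more than 0.5 of its spots were. Each gene stands for its brightest tested probe. The comparison of genotypes had no covariates and used limma 3.58.1 (lmFit, eBayes) under R 4.3.3, with p-values adjusted by the Benjamini-Hochberg method over 18254 genes, and the steps were tested on simulated data. Calls used the thresholds of the study, 2-fold with an unadjusted p of at most 0.05.

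The members and lists were chosen with earlier results of these data known. Named genes are the members, the other IRG and GBP genes, Ifng, its receptor and kinase genes, Irf1, Irf8, Socs1, called list genes and the 5 closest profiles; the fuller values of Gvin1 and Gbp1, the autophagy genes given with values and the markers given by array were chosen after their values were seen, and Cxcl11, Cxcl10 and Batf2 because they were called without knockout 1. A few listed genes are not reported here. Probe coordinates are mm9, from the array files. RefSeq (GRCm38.p6) gave names and promoter windows alone. The alternatives were other scalings and background corrections, filters, probe rules and tests, the replicate block and each array left out. The number of arrays limits the precision.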

Additional observations from a re-analysis of the deposited data

How the results depend on the processing

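Of 128 recomputed member differences, 8 members under 16 alternatives each, 38 equalled the reported value because the alternative did not touch them. Of the other 90, 73 kept their direction and moved by less than the replicate SD, 6 moved further and 11 changed sign. Tgtp2, Iigp1 and Gbp3 changed sign in none. With normexp and the 75th percentile the differences were -0.0281 for Gbp2, -0.193 for Igtp, -0.0159 for Irgm1 and -0.227 for Irgm2. Gbp6 became 0.0672 with quantile normalization, 0.0715 with normexp and quantile normalization and 0.0497 in the deposited log2 values. With 1 array left out, Gbp6 ran from -0.272 to 0.0219 (positive without knockout 2), Irgm2 from -0.0928 to 0.171 (negative without control 3 and without knockout 1) and Igtp from -0.0119 to 0.248 (negative without knockout 1).

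The number of members higher by 1 log2 unit or more was 1, and 2 with scaling on the median of detected probes or with no filter on dim probes, and 1 to 2 with an array left out. The number of pathway genes outside the members called higher was 1, then 2 with the median, 0 with normexp and the 75th percentile, 7 with no filter, and 1 to 4 with an array left out. In all, 412 genes were called higher, against 103 with normexp and the 75th percentile, 131 with normexp and quantile normalization, 10386 with no filter, and 318 to 802 with an array left out, the highest without knockout 3. The higher calls were 64% of all calls, but 46% with quantile normalization, 44.6% in the deposited values, 54.2% with normexp and the 75th percentile, 80.9% with normexp and quantile normalization, 76.9% with the median, 82.3% with the filter on all 6 arrays, 97.6% with no filter, and 52.8% without knockout 2.

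An adjusted p under 0.05 was reached by 7 genes. That number was 23 with quantile normalization, 22 in the deposited values, 13 with normexp and quantile normalization, 6444 with normexp and the 75th percentile, 2 with no filter, 26 with the filter on all 6 arrays, 11 with the mean of probes, 2 with the methods' t-test, 754 with trend and robust estimation, and 2 to 112 with an array left out, the highest without knockout 3. With the replicate block it was 4. Samples of the same number deviated together with correlations of 0.185, 0.056 and 0.094, and samples of unlike number with -0.191 to 0.067. Each matched value was the highest for its control. Whether the number marks a pair was not settled, and the block was used as an alternative only. Past the adjusted p were 8 of the 38 interferon gamma, 5 of the 15 autophagy and 8 of the 21 type I genes with normexp and the 75th percentile, where 35.3% of all genes were, and 4, 2 and 4 with trend and robust estimation, where 4.13% were; with normexp and quantile normalization Nlrc5 alone was. In the block fit 1 pathway gene stayed called and 4 type I interferon stimulated genes were called. The lowest differences under normexp, with either scaling, were 0.35 for Gvin1, 0.31 for Gbp4, 0.13 for Gbp8, 0.39 for Irf8, 0.30 for Irf7 and 0.57 for Usp18, and Ifit3 fell to 0.69 without knockout 1. The cause of these shifts was not tested. Signal over background limits Tgtp1 and the second probes of Tgtp2, Iigp1 and Gbp6, which have no measured fold.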

Other observations

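Among the type I interferon stimulated genes that were not called, Oasl2 (0.71), Zbp1 (0.58) and Isg20 (0.45) had all 3 knockout values above all 3 control values, with adjusted p-values of 0.118 to 0.149 (limma). The antiviral GTPase gene Mx1 lay below the controls on all 3 knockout arrays (-0.39, adjusted p = 0.256), and its difference was -0.18 without control 1. Of the genes of the MHC class I pathway, B2m differed by 0.54 (adjusted p = 0.121), Tap1 by 0.35 (adjusted p = 0.617, -0.004 without knockout 1 and 0.82 without control 2) and Tap2 by -0.17 (adjusted p = 0.485). With normexp and the 75th percentile the differences were 0.22 for B2m and -0.485 for Tap2, and Tap2 was -0.07 without knockout 2. Cxcl11, a chemokine that recruits activated T cells, differed by 0.94 (adjusted p = 0.117), or by 0.53 with the mean of its probes, with its highest value on knockout 2. Ptpn2, a phosphatase that restrains cytokine signalling, differed by -0.55 (adjusted p = 0.13) with no overlap between the genotypes. These genes were picked after their values were seen.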
